A study of Mus musculus with 6 samples.

Results

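*Crp*, which encodes the pentraxin C-reactive protein, was described here together with 9 genes that belong to the acute phase response or the complement system, namely *Apcs*, *C3*, *C4b*, *Cfb*, *Hp*, *Lcn2*, *Saa3*, *Ptx3* and the transthyretin gene *Ttr*. The 10 genes were taken as a list by symbol, out of 53801 mouse gene identifiers in the RNA-sequencing data. All cells were MIN6, a mouse insulinoma line used as a model of the pancreatic β cell, that expressed Cas9 and carried a lentiviral guide RNA under puromycin selection. The guide was directed to intron 2 of *Snd1* in the 3 control lines and to exon 2 in the 3 *Snd1* KO lines (knockouts). The study used 2 guides to exon 2, and by its supplement the lines named KO 1 and KO 2 carried one and KO 3 the other, so that in clone 3 guide and clone cannot be told apart. Each line was grown from a single cell and screened for SND1 protein by western blot, and each gave 1 library, so that n = 3 clones per group and the p-values measure the spread between these clones. *Crp* was itself picked by the study from these libraries, and its difference is therefore given as a description of the gene from which the list starts. The question was whether its relatives differed between the groups as well.

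Acute phase proteins are secreted proteins, made mostly by the liver, whose concentration in blood changes in inflammation. Interleukin-6 acts through gp130, JAK kinases and STAT3, and interleukin-1 acts through NF-κB, to switch on positive acute phase genes such as *Crp*, *Hp* and *Saa3* in hepatocytes, with C/EBP factors at their promoters, while negative acute phase genes such as *Ttr*, *Rbp4* and *Alb* are turned down. Pentraxins are ring-shaped pattern recognition proteins that bind damaged cells and microbes and can recruit complement, and in mice *Crp* is only a weak acute phase gene while *Apcs*, the serum amyloid P component, is a strong one. Transthyretin carries thyroid hormone and, with the retinol binding protein RBP4, vitamin A, and is also made abundantly by pancreatic islet cells.

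Values are transcripts per 1000000 (TPM), in which reads per gene are divided by a gene length and scaled to a fixed sum in each clone. The length was the sum of the exons of all transcripts for most genes, and for 1773 genes, *Ttr* among them, a length found by search, so that levels of different genes are only roughly comparable. Whole reads could be recovered from the TPM, and gave between 25775563 and 32950653 reads per clone. These totals exceed the reads per library given in the methods of the study, and whether a recovered read is a read pair or a single mate is not stated; if mates were counted singly, the counting error of low genes is larger than their reads imply. *Snd1* mRNA was 113, 119 and 112 TPM in controls 1 to 3 and 14.7, 57.1 and 19.9 TPM in knockouts 1 to 3, so that every knockout clone was below every control clone and *Snd1* KO clone 2 kept the most transcript. All 8 β cell markers were expressed in all clones, with a summed level of 43870 to 77604 TPM in the controls against 48222 to 82436 TPM in the knockouts, mostly *Iapp* and *Ins2*. Single markers differed more, since *Slc30a8*, a zinc transporter gene, was 215, 191 and 744 TPM in the controls and 809, 1005 and 779 TPM in the knockouts without overlap, and *Slc2a2*, a glucose transporter gene, was at 41.5% of the control mean with overlap (limma, adjusted p = 0.585 and 0.607). Their part in the results was not tested. Neither group was uniform. Control clone 3 correlated more closely with *Snd1* KO clone 3 (r = 0.955 across genes) and clone 2 (r = 0.949) than with control clones 1 (r = 0.943) and 2 (r = 0.936). *Snd1* KO clone 1 correlated more closely with control clones 3 (r = 0.938) and 1 (r = 0.934) than with *Snd1* KO clones 3 (r = 0.933) and 2 (r = 0.922). Main values are also given without control clone 3. For *Crp*, *Apcs*, *Ttr* and *C4b* this gave the lowest adjusted p of any single clone left out. The filter on low values, a mean of at least 0.5 TPM over the 6 clones, left 17823 genes for the test.

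*Crp* was abundant in the controls and scarce in the knockouts. Its level was 113.8, 69.3 and 52.4 TPM in controls 1 to 3, from 2339, 1353 and 930 reads. It was 3.73, 5.83 and 10.5 TPM in knockouts 1 to 3, from 69, 104 and 200 reads. The groups were thus far apart, the highest *Snd1* KO clone being well below the lowest control clone, and the knockout clones stood at 4.75%, 7.43% and 13.3% of the control mean. *Snd1* KO clone 2, which kept the most *Snd1* mRNA, was not the clone with the most *Crp*. The study selected its knockout lines as deficient in SND1 protein and found by sequencing that the protein was disrupted. The mRNA that remained is therefore not a measure of SND1 function, and its relation to the level of *Crp* was not tested. The mean was 78.5 ± 31.7 TPM in the controls against 6.67 ± 3.44 TPM in the knockouts (SD, n = 3), an 11.8-fold difference. In order of level, *Crp* held rank 1377, 2296 and 2800 among all genes in the controls and rank 12126, 11130 and 8983 in the knockouts. In bulk samples, fewer cells that express a gene and less RNA per cell cannot be told apart.

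On the log2(TPM + 1) scale, the difference of *Crp* was -3.40 ± 0.39 (SE; 95% confidence interval -4.33 to -2.46), the fifth lowest value among the 17823 genes tested. It did not pass the threshold of the study, a 2-fold change at an adjusted p under 0.05, in the test by limma (adjusted p = 0.220). Neither did *Snd1*, the gene that was targeted (limma, adjusted p = 0.511). The study, with its own processing, reported *Crp* among its lower genes at that threshold. It also measured *Crp* by qPCR on independently isolated RNA of these lines. For *Crp*, an exact permutation test of 3 against 3 clones gave p = 0.1, two-sided, the smallest it allows. Without control clone 3 the difference was -3.65 (limma, adjusted p = 0.0677), and without control clone 1 it was -3.09 (limma, adjusted p = 0.558). Only 1 of the 17823 genes was called, *Gm24966*, named here after its values were seen, so the share of genes called was 0.00561%, although 1419 genes (7.96%) had an unadjusted p under 0.05. With limma's voom on the recovered reads no gene was called and 1600 had an unadjusted p under 0.05.

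**Figure D1:**
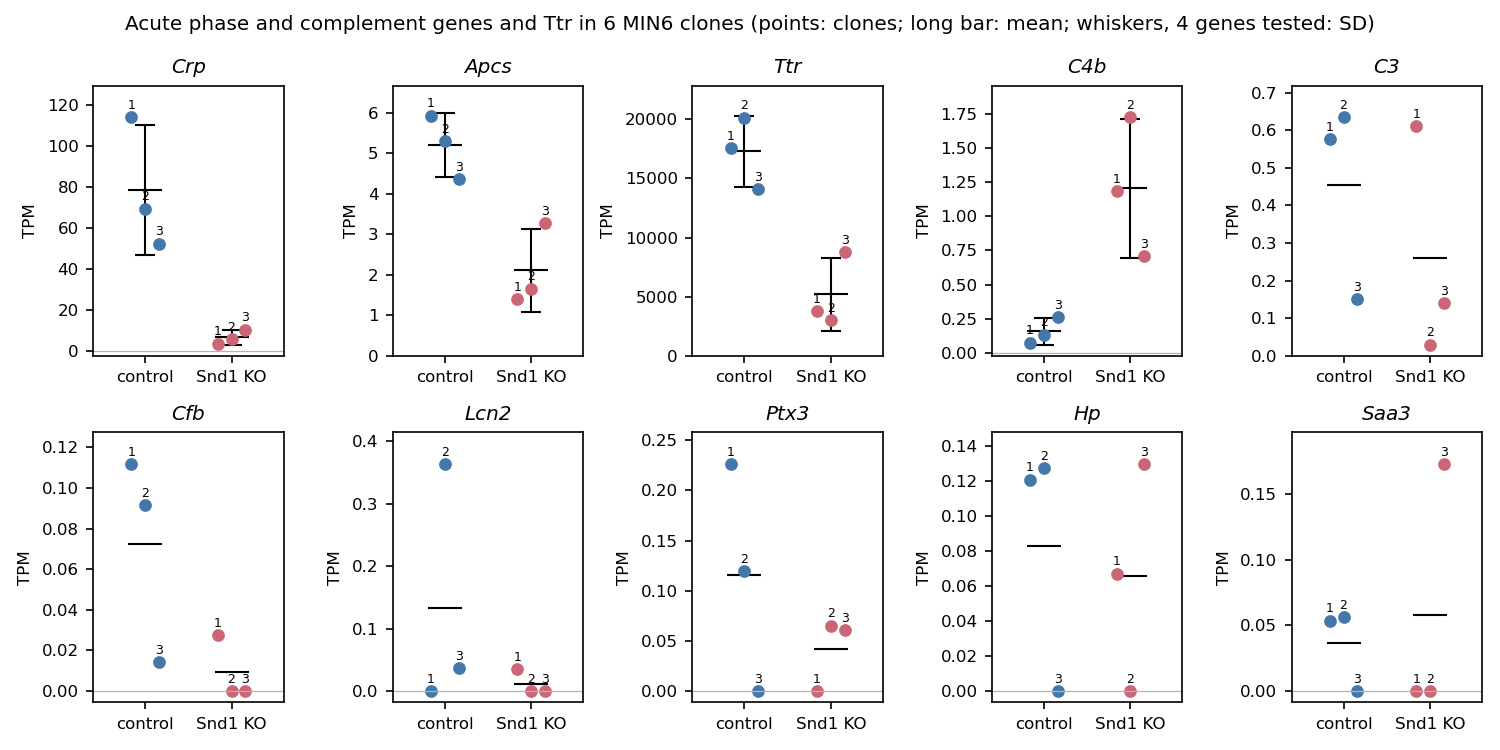
TPM of the 10 genes in each clone (points, numbered 1 to 3), with the group mean as a long bar and, for the 4 genes that passed the filter, the SD as whiskers. Each panel has its own linear axis: *Crp*, *Apcs* and *Ttr* were lower in all 3 *Snd1* KO clones than in all 3 control clones, *C4b* was higher, and the groups overlap in the other 6 genes, none of which reached 0.7 TPM.

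*Crp* lies at chr1:172698055-172833031 on the plus strand (mm10, GENCODE M21), and the gene next to it downstream that codes for a protein is *Apcs* at chr1:172893961-172895041, on the minus strand and 60.9 kb from its end. Both encode short pentraxins. The starts used for the bases below are those of RefSeq and do not match these GENCODE coordinates exactly. The 250 bases before the start of each gene (RefSeq, GRCm38.p6, on the strand of the gene, 5′ to 3′) are given because these are the 2 genes of the family that differed in the same direction, and capitals mark 3 runs of at least 9 bases that occur in both windows, in the same order and on the same strand.
Crp, chr1:172697806-172698055, plus strand: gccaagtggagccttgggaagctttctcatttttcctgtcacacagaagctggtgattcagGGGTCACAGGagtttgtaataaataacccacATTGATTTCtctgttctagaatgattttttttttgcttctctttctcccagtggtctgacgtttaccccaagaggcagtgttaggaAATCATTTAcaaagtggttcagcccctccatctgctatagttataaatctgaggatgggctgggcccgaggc
Apcs, chr1:172895055-172895304, minus strand: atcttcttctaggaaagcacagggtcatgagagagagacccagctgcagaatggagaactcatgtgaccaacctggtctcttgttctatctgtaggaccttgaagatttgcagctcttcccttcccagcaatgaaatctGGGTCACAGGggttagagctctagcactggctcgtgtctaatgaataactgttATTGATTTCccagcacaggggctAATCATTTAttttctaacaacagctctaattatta

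The longest shared run, GGGTCACAGG, began at -189 from the start of *Crp* and at -111 from that of *Apcs*, and was held by 0.131% of the 32851 windows of the same length, with positions counted back from the base before the start. The run ATTGATTTC began at -158 and -58 and was held by 0.186% of windows, and AATCATTTA began at -72 and -35 and was held by 0.204%. These runs were found by comparing the 2 windows with each other and are described as letters only. Of the motifs searched on both strands, *Crp* held 1 match to TGANTCA, the AP-1 type (at -197; 6.75% of windows hold it). *Apcs* held 1 match to TTCNNNGAA, the STAT type (at -244; 7.02% of windows), and 1 to TAATTA, the homeodomain core (at -9; 4.84% of windows). Neither window held a match to TTGCNNAA, the C/EBP type (9.56% of windows), the NF-κB type (0.356%), or TGTTTAC, the FOXA type (3.17%). RefSeq windows were also found for *C3*, *Lcn2*, *Saa3* and *Ptx3*, which were too low to compare, and not for *C4b*, *Cfb*, *Hp* and *Ttr*.

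*Apcs* differed in the direction of *Crp* at a far lower level. It was 5.93, 5.30 and 4.37 TPM in the controls, from 33, 28 and 21 reads, and 1.40, 1.66 and 3.28 TPM in the knockouts, from 7, 8 and 17 reads. The groups did not overlap, and *Snd1* KO clone 3 was nearest to the controls, at 63.2% of their mean against 26.9% and 31.9% in clones 1 and 2. The mean of 2.11 ± 1.02 TPM was 40.6% of the control mean of 5.20 ± 0.786 TPM (SD, n = 3). The log2 difference was -1.03 ± 0.27 (SE; 95% confidence interval -1.68 to -0.39; limma, adjusted p = 0.568), and -1.13 without control clone 3 (limma, adjusted p = 0.234). With so few reads, counting error is a large part of the value of each clone.

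The other neighbours of *Crp* were mostly silent. Upstream, *Dusp23*, a dual specificity phosphatase gene 65.1 kb away, was 75.1, 71.4 and 80.1 TPM in the controls against 70.4, 57.2 and 62.9 TPM in the knockouts. It was lower in each knockout clone than in any control clone, but at 84.0% of the control mean, and the log2 difference of -0.25 ± 0.11 (SE) did not pass the test (limma, adjusted p = 0.607). *Slamf8*, 107 kb upstream, and the olfactory receptor gene *Olfr1408*, 295 kb downstream, had no read in any clone, which allows up to 3 reads each, and *Fcrl6*, 95.5 kb upstream, had 1 read in control clone 1. *Olfr16*, an olfactory receptor gene 117 kb downstream, had 6, 4 and 0 reads in the controls and none in the knockouts, so that the groups overlapped at 0. Between *Crp* and *Apcs*, the locus *9430083B18Rik*, an unassigned transcript 40.5 kb downstream of *Crp*, had 21, 11 and 5 reads in the controls and 0 in each *Snd1* KO clone. The pseudogene *Gm38051*, inside the span of *Crp* and on its strand, had 4, 7 and 3 reads in the controls against 2, 1 and 0 reads in the knockouts. Both were named after their values were seen and passed the filter only through the controls, where they are high, neither passed the test by limma (adjusted p = 0.450 and 0.581), and reads of *Gm38051* cannot be separated with certainty from those of the gene that spans it.

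**Figure D2:**
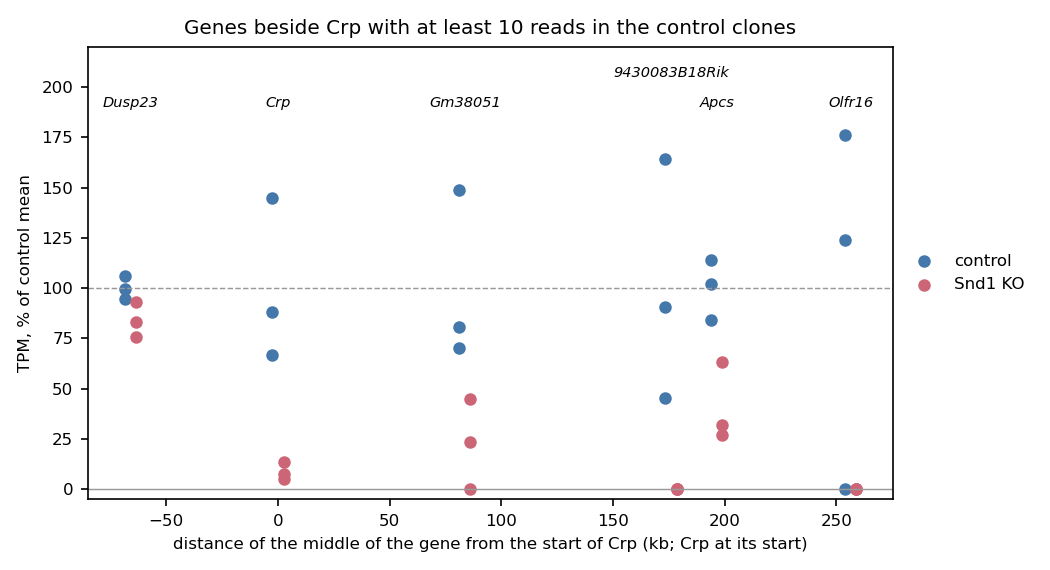
TPM as a percentage of the control mean (y axis) for *Crp* and for annotated genes around it with at least 10 reads in the control clones together, placed by the distance of the middle of each gene from the start of *Crp* (x axis, kb; *Crp* itself at 0). Each point is a clone. The *Snd1* KO clones of *Crp* lie at 4.75% to 13.3% and those of *Apcs* at 26.9% to 63.2%, while *Dusp23* on the other side averaged 84.0%. *Gm38051*, *9430083B18Rik* and *Olfr16* rest on 14, 37 and 10 control reads.

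*Ttr* was one of the most abundant transcripts of control clones. It was 17590, 20138 and 14121 TPM in controls 1 to 3, and 3796, 3032 and 8774 TPM in the knockouts. Every knockout clone was below every control clone, at 22.0%, 17.5% and 50.8% of the control mean, with *Snd1* KO clone 3 again nearest to the controls and control clone 3 lowest among them. In rank among all genes, *Ttr* held places 6, 5 and 9 in the controls and 18, 24 and 12 in the knockouts, and its share of the total TPM was 1.76%, 2.01% and 1.41% against 0.380%, 0.303% and 0.877%. The mean was 17283 ± 3020 TPM in the controls against 5201 ± 3118 TPM in the knockouts (SD, n = 3), a 3.32-fold difference. Between 18376 and 133553 reads lie behind the value of each clone, so counting error is negligible here and the spread between clones sets the precision. The log2 difference was -1.88 ± 0.43 (SE; 95% confidence interval -2.91 to -0.84; limma, adjusted p = 0.540), at rank 48 from the lowest of all genes tested, and -2.01 without control clone 3 (limma, adjusted p = 0.205). With each clone left out in turn it lay between -2.33, without *Snd1* KO clone 3, and -1.57, without *Snd1* KO clone 2. *Ttr* lies at chr18:20665280-20674321 on the plus strand.

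The gene of the partner of transthyretin in vitamin A transport differed in the same direction. *Rbp4* was 40.0, 32.7 and 23.9 TPM in the controls against 1.07, 10.1 and 8.29 TPM in the knockouts, with no overlap and *Snd1* KO clone 1 lowest by far. Its mean was 6.48 ± 4.77 TPM, or 20.1% of the control mean of 32.2 ± 8.06 TPM, with a log2 difference of -2.44 ± 0.63 (SE; limma, adjusted p = 0.560). It was -1.68 without *Snd1* KO clone 1 (limma, adjusted p = 0.145), and -2.04 and called when clones were weighted by quality (limma, adjusted p = 0.0225). That setting called 5.02% of all genes tested. *Apoa2*, an apolipoprotein of high density lipoprotein, was 13.0, 12.4 and 18.3 TPM in the controls against 10.2, 6.85 and 10.4 TPM in the knockouts, again without overlap, and differed by -0.62 ± 0.22 (SE; limma, adjusted p = 0.591). *Alb*, the gene of serum albumin, went the other way, with 1.55, 0.886 and 0.450 TPM in the controls against 2.52, 2.61 and 2.44 TPM in the knockouts (log2 difference 0.88 ± 0.27, SE; limma, adjusted p = 0.568). *Trf*, transferrin, had 105, 63 and 4 reads in the controls against 0, 1 and 9 reads in the knockouts, and the groups overlapped through control clone 3. Of the 8 negative acute phase genes listed, *Ttr* included, 5 passed the filter, none was called, 3 lay lower in all 3 knockouts and 1 lay higher (4.03% and 9.69% of all genes tested did so). The median log2 difference of the 5 was -0.84, the value of *Trf*, which passed the filter only through control clones 1 and 2, and that of all genes tested was 0.04.

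*C4b*, which encodes complement component C4, was the only tested gene of the list that was higher in the knockouts, and it was close to the detection limit. It had 3, 5 and 9 reads in the controls, or 0.0760, 0.133 and 0.264 TPM, and 42, 59 and 26 reads in the knockouts, or 1.18, 1.72 and 0.708 TPM. The groups did not overlap, and *Snd1* KO clone 3 and control clone 3 were the clones nearest to each other. The mean was 0.158 ± 0.0963 TPM in the controls against 1.20 ± 0.508 TPM in the knockouts (SD, n = 3), a 7.63-fold difference. Because the values are low, the size depends on the scale, and the log2 difference was 0.91 ± 0.28 (SE; limma, adjusted p = 0.568) with 1 TPM added, 0.97 on the same scale without control clone 3 (limma, adjusted p = 0.288), 2.33 with 0.1 TPM added, and 2.92 on recovered reads by voom. *C4b* passed the filter only through the group in which it was high. Its near-identical neighbour *C4a* had 26, 36 and 36 reads in the controls against 18, 41 and 33 reads in the knockouts, with overlapping groups, and since reads can be shared between these genes their split is uncertain. *C4b* lies at chr17:34728380-34743882 on the minus strand.

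Other complement genes gave few values. Of 27 listed besides the members, 5 passed the filter, none was called and the median log2 difference was -0.01. *C8b*, a subunit of the membrane attack complex, was higher in every *Snd1* KO clone, with 1, 0 and 8 reads in the controls against 55, 30 and 15 reads in the knockouts, through which alone it passed the filter (log2 difference 1.01 ± 0.34, SE; limma, adjusted p = 0.585). *C1qa*, a chain of the initiating C1q molecule, reached 76.4, 88.9 and 202 TPM in the controls against 178, 160 and 139 TPM in the knockouts, where control clone 3 was the highest of all and the groups overlapped. None of 13 complement regulators and receptors was called, 5 passed the filter, and their median log2 difference was -0.13.

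The remaining 6 genes were barely detected in any clone, and none passed the filter or had more than 23 reads in a clone. *C3*, the central complement component, had 22, 23 and 5 reads in the controls against 21, 1 and 5 reads in the knockouts, with clear overlap (exact permutation test, p = 0.4). *Cfb*, factor B of the alternative pathway, had 9, 7 and 1 reads in the controls against 2, 0 and 0 reads in the knockouts, the overlap coming from control clone 3 (exact permutation test, p = 0.2). The antimicrobial siderophore binder *Lcn2* had 0, 11 and 1 reads in the controls against 1, 0 and 0 reads in the knockouts, so that nearly all of them came from control clone 2. The long pentraxin *Ptx3* had 4, 2 and 0 against 0, 1 and 1 reads. The haemoglobin scavenger *Hp*, haptoglobin, had 2, 2 and 0 against 1, 0 and 2 reads. The serum amyloid gene *Saa3* had 1, 1 and 0 against 0, 0 and 3 reads. These last 4 genes were at or under the floor of 3 reads in most clones, too few to judge a difference between the groups. Exact permutation tests, two-sided, gave p = 0.4, 0.5, 1 and 1, where 0.1 is the smallest value such a test allows at any depth.

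Of the 10 genes 4 could be tested and none was called by limma, with 0 called also by voom on recovered reads, in which 6 could be tested. All 4 had an unadjusted p under 0.05, 3 lower and 1 higher. The background was 2.33% of genes lower and 5.63% higher at that p, while 4.03% of all genes tested were lower and 9.69% higher in every *Snd1* KO clone, 13.7% together. *C4b* was among the genes tested only because of the group where it is high, and *Crp* was picked from these libraries, so these counts are descriptions. Over *Apcs*, *Ttr* and *C4b* the median log2 difference was -1.03, the value of *Apcs*, against 0.04 for all genes, and it was -0.09 when the 6 low genes were included. Differences of at least 1 on the log2 scale were found for 1.85% of genes in the lower and 3.04% in the higher direction.

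**Figure D3:**
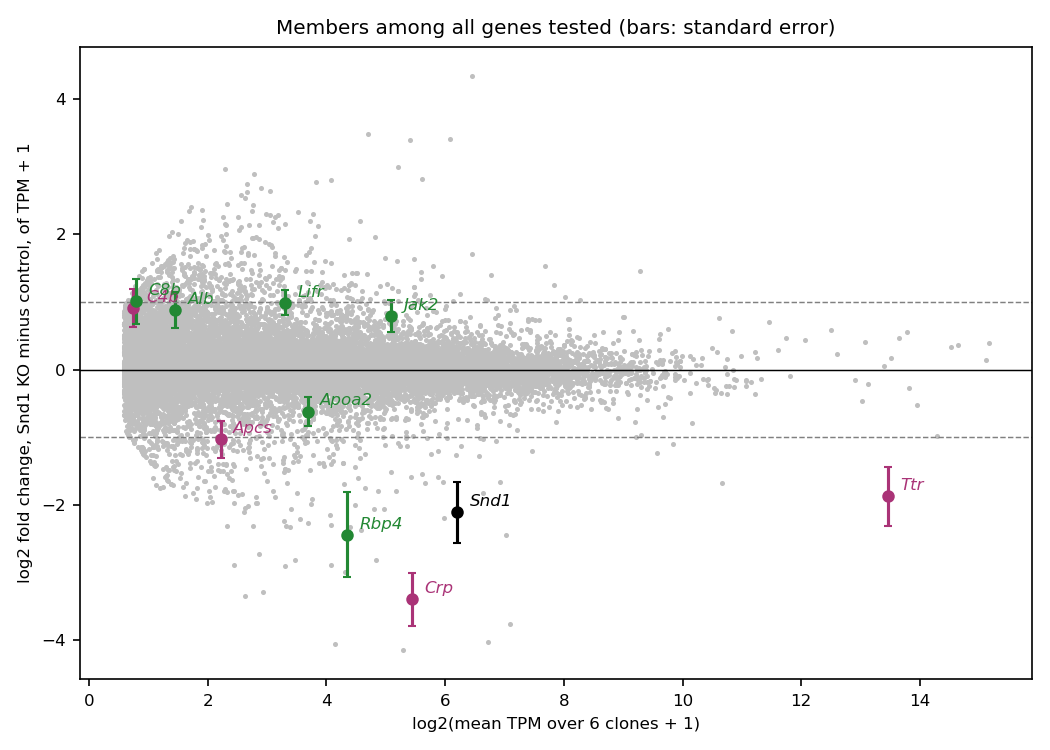
Log2 fold change of TPM + 1, *Snd1* KO minus control (y axis), against log2 of the mean TPM + 1 over the 6 clones (x axis) for the 17823 genes tested (grey). The 4 members that passed the filter (purple), 6 genes of related lists (green) and *Snd1* (black) are marked with their standard errors, and dashed lines mark a 2-fold change. *Ttr* at -1.88 lies below the other genes near its level, *Crp* is at -3.40, and *C4b* at 0.91 lies at the low end of expression.

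The other pentraxins past the filter had differences of the opposite sign to *Crp* and *Apcs*, which did not pass the test. The neuronal pentraxins *Nptx1*, *Nptx2* and the receptor *Nptxr* had log2 differences of 0.54, 0.83 and 0.26 with overlapping groups, and that of *Nptx2* came from *Snd1* KO clone 1 alone, at 158 TPM against 8.88 and 6.21 TPM in the other knockout clones. *Ptx4* was at 0 in every clone. Among 27 other positive acute phase genes, 8 passed the filter, none was called and the median log2 difference was -0.04. None of the 8 had groups that did not overlap, where 13.7% of all genes tested did, and a count from so few genes is a description only. *Serpina3n*, a secreted protease inhibitor, ranged from 4.23 to 14.7 TPM in the controls and from 1.75 to 19.8 TPM in the knockouts. *Saa1*, *Saa2*, *Orm1*, *Orm2*, *Serpina3m* and *Serpina3k* were at 0 in every clone.

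None of the genes of the signals that induce acute phase genes was called. The cytokine genes *Tnf*, *Osm* and *Il1a* had no read in any clone, which allows up to 3 reads each, and *Il6* had at most 9 reads, in *Snd1* KO clone 2, while *Il1b* was 6.34 to 14.4 TPM in the controls against 9.29 to 11.8 TPM in the knockouts, with overlap. *Lifr*, the receptor of leukaemia inhibitory factor, was 5.40, 6.15 and 5.17 TPM in the controls against 15.1, 11.0 and 10.4 TPM in the knockouts. It was higher in every knockout clone, by 0.99 ± 0.18 on the log2 scale (SE; limma, adjusted p = 0.383). The signal transducing receptor *Il6st*, known as gp130, did not pass the test, with a log2 difference of 0.00. Of 15 inducing cytokines and receptors, 10 passed the filter, none was called, 1 had groups that did not overlap (13.7% of all genes tested), and the median was 0.14.

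Downstream of these receptors, the kinase gene *Jak2* was 20.8, 20.2 and 31.0 TPM in the controls against 34.1, 37.7 and 54.7 TPM in the knockouts. The groups were close but did not overlap, and the log2 difference was 0.79 ± 0.24 (SE; limma, adjusted p = 0.568). It was 1.23 and called when clones were weighted by quality (limma, adjusted p = 0.0195), a setting that called 5.02% of all genes tested. The NF-κB cofactor *Nfkbiz* and the NF-κB subunit *Rel* were also higher in every knockout clone, by 0.54 and 0.29 (limma, adjusted p = 0.598 and 0.607). *Stat3*, which carries the interleukin-6 signal, differed by 0.28 with overlap, and its target *Socs3* by -0.49 with overlap. *Hnf4a*, a liver-enriched factor that β cells also use, differed by -0.46 with overlap through control clone 3. Of 23 signalling and transcription factor genes 19 passed the filter, none was called, 3 were higher and none lower in every *Snd1* KO clone (9.69% and 4.03% of all genes tested), and the median was 0.05. Of 11 NF-κB response genes 4 passed and none was called. *Tnfaip3*, an inhibitor of NF-κB signalling, was the only one of the 4 with groups apart (13.7% of all genes tested), at 0.27 (limma, adjusted p = 0.758). Among 10 receptors and partners of acute phase proteins 2 passed, none was called, and the median was -0.31.

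Counted once and without the 10 genes themselves, 136 genes of these lists were examined, 59 passed the filter and none was called by limma. Of these 59, 3 had an unadjusted p under 0.05 in the lower and 5 in the higher direction. Both counts are above the shares of 2.33% and 5.63% over all genes tested. Their groups did not overlap for 2 genes in the lower direction (3.39%) and 7 in the higher direction (11.9%), close to the 4.03% and 9.69% of all genes tested, and the median log2 difference of 0.03 was close to the 0.04 of all genes.

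**Figure D4:**
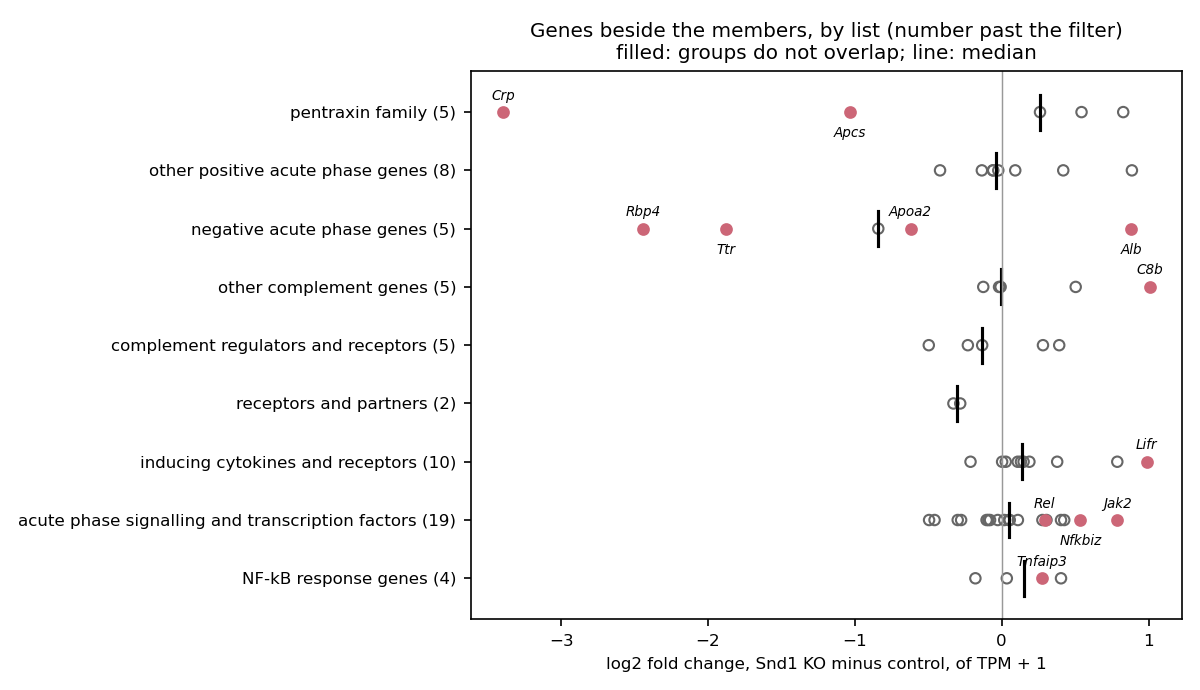
Log2 fold change of TPM + 1, *Snd1* KO minus control (x axis), of each gene past the filter in 9 lists of related genes (y axis, with the number of genes; *Crp*, *Apcs* and *Ttr* appear in their lists). Filled points have groups that do not overlap, and vertical lines mark the median of each list. *Rbp4*, *Ttr* and *Apoa2* lie to the left and *Alb* to the right among the negative acute phase genes, while the medians of the other lists lie between -0.31 and 0.26.

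Markers of other cell types were read in the same clones. The 8 hepatocyte markers, of which *Cyp2e1* was at 0 and *Alb* was 0.450 to 2.61 TPM, summed to 4.48 to 19.6 TPM in the controls against 6.76 to 8.86 TPM in the knockouts. Most of the highest sums was *Apob*, at 16.5, 7.83 and 2.13 TPM in the controls and 3.03, 1.05 and 2.79 TPM in the knockouts, high in control clones 1 and 2 alone. The 8 macrophage markers summed to 6.99, 7.06 and 2.15 TPM in the controls and 2.66 to 3.33 TPM in the knockouts. *Ptprc* was at 0.0487 TPM or less and *Itgam* at 0.0205 TPM or less, while *Lyz2* was 3.71, 5.03 and 0 TPM in the controls and 0.295 to 0.459 TPM in the knockouts. The 7 acinar markers summed to at most 0.866 TPM, with *Cpa1*, *Prss2* and *Amy2a5* at 0, and the 6 fibroblast markers to 4.54, 5.39 and 0.176 TPM in the controls against 0.503 to 0.892 TPM in the knockouts. These summed levels overlapped between the groups through control clone 3, while control clones 1 and 2 stood above every knockout for the hepatocyte, macrophage, acinar and fibroblast markers, and the part of this in the results was not tested. The 4 endothelial markers summed to 1.22 to 2.21 TPM in the controls against 2.91 to 10.4 TPM in the knockouts, apart through *Plvap*, and the part of this difference in the results was not tested. The 5 duct markers rested on *Krt7*, at 3.55, 1.59 and 72.9 TPM in the controls against 87.2, 77.0 and 44.1 TPM in the knockouts, another gene in which control clone 3 was like the knockout clones. The 7 markers of other islet cells summed to 175 to 314 TPM in the controls against 55.9 to 1102 TPM in the knockouts, almost all *Gcg*, with *Hhex* at 0.

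Among 11356 genes of mean TPM 5 or more, the 5 whose log2 levels followed *Crp* most closely over the 6 clones were *Gm20163* (Pearson r = 0.998), *Slc35d2* (r = 0.993), *Pcdhgb7* (r = 0.990), *Lbh* (r = 0.989) and *Gm27320* (r = 0.985). These values only describe likeness, because the 6 clones fall into 2 separate groups of *Crp* level and r is mostly set by the distance between them. *Pcdhgb7*, a clustered protocadherin gene, differed by an amount of the order of *Crp*, with 44.1, 22.7 and 29.6 TPM in the controls against 0.411, 0.768 and 1.87 TPM in the knockouts and a log2 difference of -4.05 (limma, adjusted p = 0.0879). In *Slc35d2*, a nucleotide sugar transporter gene, the mean was 6.74 TPM in the controls against 3.70 TPM in the knockouts. *Ttr* was not among the 5, and *Apcs* and *C4b* were under the minimum level of this comparison.

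The direction of the difference of *Crp*, *Ttr*, *Apcs* and *C4b* was the same under every alternative that gave a value. The log2 difference of *Crp* lay between -3.73 and -3.05 over 16 alternatives, with a limma adjusted p of 0.0179 to 0.558. That of *Ttr* lay between -2.33 and -1.37 (adjusted p of 0.0499 to 0.986), that of *Apcs* between -1.35 and -0.74 (0.0584 to 0.986), and that of *C4b* between 0.72 and 2.92 (0.0700 to 0.986). *Crp* and *Ttr* were called only when clones were weighted by quality in limma, at adjusted p of 0.0179 and 0.0499. Those weights were 1.87, 2.54 and 0.279 for control clones 1 to 3 and 0.286, 0.672 and 3.91 for *Snd1* KO clones 1 to 3, so that control clone 3 and *Snd1* KO clone 1 counted little. With the same weights 895 genes, 5.02% of those tested, were called.

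**Figure D5:**
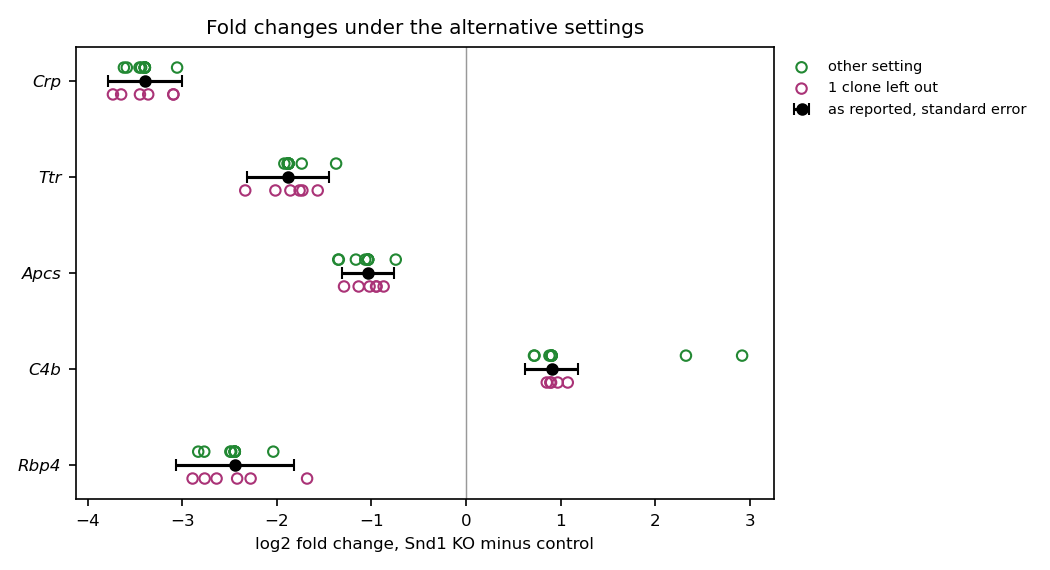
Log2 fold change, *Snd1* KO minus control (x axis), of *Crp*, *Ttr*, *Apcs*, *C4b* and *Rbp4* as reported (black, with standard error), with 1 clone left out (purple) and under the other settings (green). All values keep their sign. *C4b* spreads most, from 0.72 to 2.92, with 2.33 when the constant added before the logarithm was 0.1 TPM.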

How the data were processed

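RNA of 6 clonal MIN6 lines (3 control, 3 *Snd1* KO; 1 library each, grouped by their labels) was made into cDNA (Takara), into Nextera XT libraries and sequenced as paired ends by the authors. The deposited values are TPM per gene. The submitters' processing notes name FastQC, Trimmomatic, HISAT2, HTSeq, DESeq2 and mm10, and their roles, versions and annotation are not given in the sources used here. The kit does not mark strand as far as stated, so overlapping genes can share reads.

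Of 53801 mouse identifiers, 53706 matched GENCODE M21. The 92 ERCC and 7 SIRV spike-in rows (at most 1.02 TPM in a clone) were left out. TPM multiplied by the summed exon length, or for 1773 genes by a length found by search, gave whole reads for 99.97% of values above 0, within 0.01 of a read. These reads give the depth, and floors of 3 reads cover counting error only.

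Groups were compared on log2(TPM + 1) in R 4.3.3 with limma 3.58.1 (moderated by eBayes along a trend with mean expression), keeping genes that averaged 0.5 TPM or more, with Benjamini-Hochberg adjustment over all genes tested, at adjusted p under 0.05 and 2-fold. Adding 1 TPM understates differences of low genes. Single genes were also compared by exact two-sided permutation tests. Alternatives were a pseudocount of 0.1, other filters, scalings, variance models and thresholds, quality weights, a replicate block, each clone left out, and limma's voom on recovered reads. Clones with the same number did not deviate together (correlations 0.115, -0.199 and -0.108), so the numbers were not used as pairs.

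The 10 genes, the lists beside them and the markers were chosen with earlier results of these data known. The rule for naming took the 10 genes, *Snd1*, called genes of the lists, and up to 3 genes per list and direction with groups apart and the largest difference. It also took the 5 genes most like *Crp*, and up to 3 protein-coding neighbours on each side of *Crp*. Further genes were named outside this rule, among them *C4a*, *Trf*, *C1qa*, *Serpina3n*, the neuronal pentraxins, *Il1b*, *Il6st*, *Stat3*, *Socs3* and *Hnf4a*. Tables and plots were made in Python 3.11.15 (pandas 2.3.3, numpy 2.4.6, matplotlib 3.10.9). Some genes of the lists and 1 motif are counted or searched but not reported here by name.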

Additional observations from a re-analysis of the deposited data

How the results depend on the processing

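The count of genes called over all features was 1 as reported and 0 with no filter on low values, with no trend, with the replicate block and with voom on recovered reads, 2 at an adjusted p under 0.1, and 895 with quality weights for the clones (370 lower, 525 higher). It was 0 to 2 with 1 clone left out, the 2 being without *Snd1* KO clone 2. No member was called as reported, and 2 (*Crp* and *Ttr*) with quality weights, which gave *Crp* a log2 difference of -3.05 (limma, adjusted p = 0.0179). With those weights 5 genes of the related lists were called (2 lower, 3 higher), against none as reported. The median of the other members, -1.03 as reported, was -0.094 with no filter (9 genes) and -1.88 at a mean of at least 5 TPM (*Ttr* alone), and lay between -1.29 and -0.87 with 1 clone left out. Under the replicate block, with numbers that do not pair the clones, *Crp* stayed at -3.40 (limma, adjusted p = 0.538) and no member was called. *C4b* gave no value without *Snd1* KO clone 2, since it then missed the filter. The log2 differences of the 4 members tested, *Snd1*, *Rbp4*, *Apoa2*, *Alb*, *C8b*, *Lifr*, *Jak2*, *Nfkbiz*, *Rel* and *Tnfaip3* kept their direction under the alternatives that gave a value, and the other genes named and the medians of the related lists were not rerun. The median of all genes tested went from 0.04 to -0.01 under quantile normalization. The low reads of *Apcs*, *C4b* and the 6 genes under the filter limit what can be seen of them, whereas for *Crp* and *Ttr* the spread between 3 clones per group does.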
